A study of Mus musculus with 8 samples.

Results

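Wnt ligands, the Frizzled receptors that bind them, and the secreted Sfrp and Dkk proteins were examined in liver cells that the study prepared as microvascular endothelial cells (ECs). Members were chosen by gene symbol alone: Wnt, Fzd, Sfrp1 to Sfrp5 and Dkk1 to Dkk4 genes. Of 22520 protein-coding genes in the deposited table, 37 matched, namely 19 Wnt, 10 Fzd, 4 Sfrp and 4 Dkk genes. Of these, 15 reached a signal of 1 in 4 or more of the 8 libraries and were tested together with all 11391 genes that met this filter.

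The libraries were mRNA-seq profiles of 4 wild-type (WT) and 4 LRP1 eKO samples from C57BL/6 mice at postnatal day 14. LRP1 is an endocytic receptor of the LDL receptor family. In the study's methods, both groups carried floxed LRP1 alleles, and the LRP1 eKO mice also carried CreER under the Cdh5 promoter, which drives an inducible Cre recombinase in ECs, whereas their WT littermates did not. Cells were selected with beads that carry an antibody to PECAM-1. The labels number the samples 1 to 4 within a genotype but do not say that each came from a separate animal, so the p-values measure the spread between these samples. Values are the quantile-normalized signal of the deposited table, whose unit before normalization is not stated, so that each library sums to nearly the same total (484445 to 485947) and its depth is unknown. Among genes above 0 in only 1 or 2 libraries the smallest signal was lower in genes with longer exons (Spearman rho -0.598 across 1296 genes, which are not independent replicates), so the signal behaves as a value per length and levels of different genes are set side by side on that scale.

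Lrp1 itself was between 56.2 and 85.1 in WT libraries and between 2.16 and 6.01 in LRP1 eKO libraries. The cell type label was less clear. Cdh5 and Pecam1, the defining EC genes, had signals of 1.26 to 4.99 and 1.53 to 3.85 over the 8 libraries, and the 10 EC markers together summed to 36.8 to 38.7 in WT and 38.4 to 54.4 in LRP1 eKO libraries. The mesothelial list of 7 genes summed to 2315 to 2794 in WT and 2992 to 3313 in LRP1 eKO libraries, with Msln between 837 and 1370. The 12 stellate cell and fibroblast markers summed to 2047 to 2358 and 1794 to 2254, and the 6 smooth muscle markers to 1504 to 1558 and 1844 to 1926. Collagens and Dcn gave most of the former sum, with Lrat at most 0.201. Acta2 and Tagln gave most of the latter, with Myh11 at 0.437 to 1.68. Thus the summed signals of the mesothelial, fibroblast and smooth muscle lists exceeded that of the EC list in every library. These lists differ in size and genes, and which cells gave the signals was not tested. The cells are called liver cells here. The 10 liver sinusoidal EC markers summed to 78.3 to 87.9 in WT and 68.8 to 94.6 in LRP1 eKO libraries. Gata4 and Maf gave most of this sum, with WT means of 29.6 and 43.9, whereas Stab2, Clec4g, Mrc1 and Oit3 had WT means below 1. Maf was lower in every LRP1 eKO library than in any WT library, whereas Flt4 and Oit3 were higher. The 10 macrophage markers were at 159 to 241 and 59.8 to 577, with the lowest sum in LRP1 eKO replicate 2. The 6 cholangiocyte markers were at 301 to 356 and 233 to 696, mostly from Spp1 and Krt7, whereas the highest Epcam signal was 0.052. Hepatocyte markers were at 43.1 to 62.6 in WT and 15.4 to 20.1 in LRP1 eKO libraries. Skeletal muscle markers were at 46.9 to 73.1 and 14.5 to 15.9, and erythroid markers at 25.7 to 58.8 and 15.4 to 25.4. The highest erythroid sum, in WT replicate 2, included globin genes that were listed at 0 in the other libraries. Outside that library, Alas2 gave most of the erythroid sum. Alas2 signals overlapped between genotypes, at 24.6 to 29.1 in WT and 14.6 to 24.7 in LRP1 eKO libraries. Lymphocyte markers summed to at most 0.191. Of the Kupffer cell genes, Clec4f was listed at 0 in the 4 WT libraries and was at 0.124 to 0.826 in LRP1 eKO libraries, whereas Cd5l was at 2.05 to 4.08 and 0.274 to 20.8. Timd4 was listed at 0 in 7 of the 8 libraries. Cd14, on the same macrophage list, went down without overlap, from a mean of 56.4 in WT to 20.3 in LRP1 eKO libraries. Of 7 tested genes on that list, 1 was higher (Csf1r) and 1 was lower (Cd14) at a limma adjusted p below 0.05. The Csf1r groups overlapped, since LRP1 eKO replicate 2 (2.36) lay below all WT libraries (2.52 to 2.64). The limma adjusted p of Csf1r was 0.030 with and 0.125 without the filter. In bulk RNA, fewer cells of a type and less RNA per cell cannot be told apart, and the part of these lists in the results on Wnt genes was not tested. WT replicate 4 lay farthest from its group's median for 61.7% of all tested genes and for 12 of the 15 tested members, and LRP1 eKO replicate 2 for 37.2% and for 8 of 15.

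**Figure D1:**
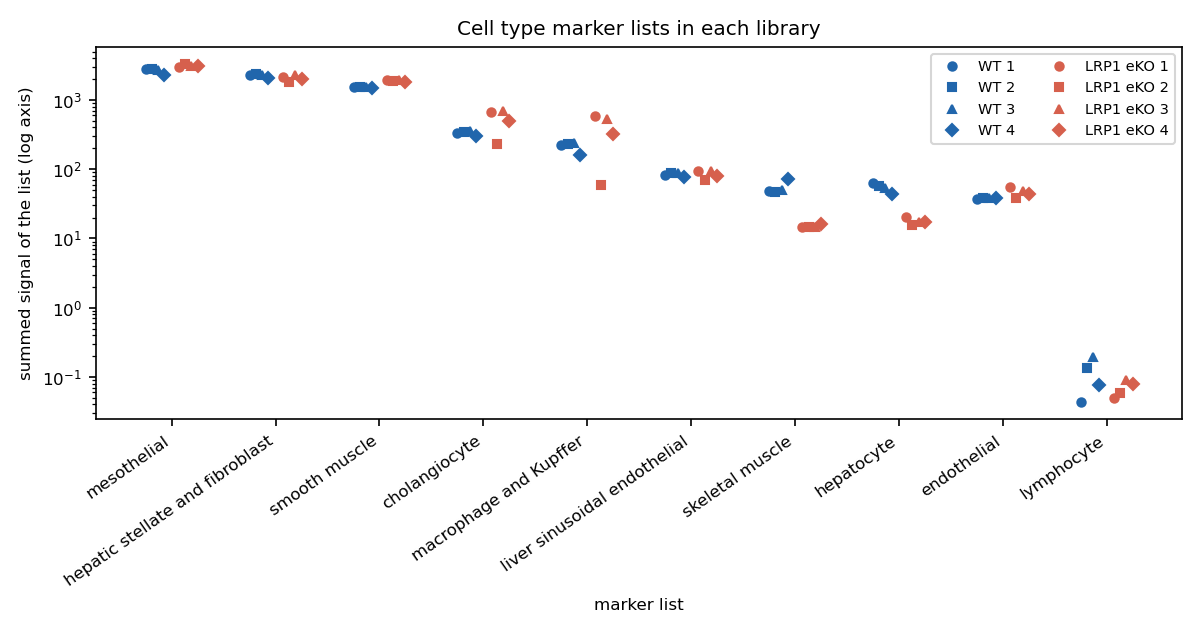
Summed signal of 10 cell type marker lists (horizontal axis) in each of the 8 libraries, on a log axis. Blue symbols are WT and red symbols LRP1 eKO libraries. Mesothelial, fibroblast and smooth muscle lists sum to 1504 or more in every library, whereas the endothelial list stays between 36.8 and 54.4.

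Wnt proteins are secreted, lipid-modified ligands that act over short distances. They bind the cysteine-rich domain of a Frizzled receptor together with LRP5 or LRP6, which are relatives of LRP1, and thereby stabilize beta-catenin, which switches on target genes with TCF and LEF factors. Other Wnts, with Wnt5a and Wnt11 as the best known, mostly act without beta-catenin through Ror and Ryk receptors and the planar cell polarity proteins. Sfrp proteins carry a Frizzled-like domain and bind Wnts outside the cell, and Dkk1, Dkk2 and Dkk4 bind LRP5 and LRP6, whereas Dkk3 is a divergent family member. In liver, ECs near the central vein supply Wnt2, Wnt9b and the Wnt amplifier Rspo3 to neighbouring hepatocytes.

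RefSeq promoters (GRCm38.p6, 250 bases before to 50 after each start) were used for 25 members, with 28 promoters. In them 4 motifs were searched on both strands: the TCF/LEF core CTTTGA, the GC box GGGCGG, the CCAAT box CCAAT and the TATA box TATAAA. The windows below show the receptor with the greatest decrease (Fzd1), the ligands Wnt4, Wnt9a and Wnt2, which differed between genotypes, and Wnt3a, the neighbour of Wnt9a that was listed at 0. Their capitals mark those 4 motifs. Each is written 5′ to 3′ on the strand of its gene.
Fzd1: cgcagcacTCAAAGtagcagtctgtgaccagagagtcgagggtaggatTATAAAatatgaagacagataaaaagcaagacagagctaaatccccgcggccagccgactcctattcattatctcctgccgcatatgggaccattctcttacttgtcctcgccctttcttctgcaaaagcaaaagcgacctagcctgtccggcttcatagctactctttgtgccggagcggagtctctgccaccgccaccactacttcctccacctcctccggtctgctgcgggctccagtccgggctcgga
Wnt4: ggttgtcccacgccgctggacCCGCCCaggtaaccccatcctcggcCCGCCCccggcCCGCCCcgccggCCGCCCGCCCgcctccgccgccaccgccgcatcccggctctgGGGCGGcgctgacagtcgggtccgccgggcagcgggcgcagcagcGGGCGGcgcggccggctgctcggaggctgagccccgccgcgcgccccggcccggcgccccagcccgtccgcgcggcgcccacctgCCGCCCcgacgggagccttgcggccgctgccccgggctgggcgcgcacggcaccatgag
Wnt9a: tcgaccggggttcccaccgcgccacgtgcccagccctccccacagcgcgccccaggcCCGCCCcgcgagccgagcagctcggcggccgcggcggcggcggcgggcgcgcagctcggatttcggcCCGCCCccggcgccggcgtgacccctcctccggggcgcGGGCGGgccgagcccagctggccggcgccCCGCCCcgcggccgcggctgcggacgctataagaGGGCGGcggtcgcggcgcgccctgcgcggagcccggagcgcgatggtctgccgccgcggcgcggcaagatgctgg
Wnt3a: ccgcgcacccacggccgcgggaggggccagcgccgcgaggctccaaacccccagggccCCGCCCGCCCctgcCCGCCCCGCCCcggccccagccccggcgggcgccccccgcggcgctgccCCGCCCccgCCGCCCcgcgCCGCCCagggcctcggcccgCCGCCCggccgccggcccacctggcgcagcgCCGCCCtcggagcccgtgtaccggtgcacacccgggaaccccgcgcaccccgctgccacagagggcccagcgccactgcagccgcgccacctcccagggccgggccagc
Wnt2: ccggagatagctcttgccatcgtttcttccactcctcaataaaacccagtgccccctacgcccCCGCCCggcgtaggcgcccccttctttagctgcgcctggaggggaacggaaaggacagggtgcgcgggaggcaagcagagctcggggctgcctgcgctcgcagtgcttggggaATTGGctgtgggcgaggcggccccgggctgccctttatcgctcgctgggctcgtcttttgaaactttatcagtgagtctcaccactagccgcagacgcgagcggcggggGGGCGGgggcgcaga
The Fzd1 window (chr5:4758167-4758466, minus strand) held 1 TCF/LEF core and 1 TATA box at 54.0% G and C. By contrast, those of Wnt4 (chr4:137277385-137277684, plus strand), Wnt9a (chr11:59306680-59306979, plus strand) and Wnt3a (chr11:59290702-59291001, minus strand) were 84.3%, 83.3% and 86.3% G and C, with 8, 5 and 9 GC boxes. The window of Wnt2 (chr6:18030396-18030695, minus strand) held 2 GC boxes and 1 CCAAT box. Over the 28 windows of members, the GC box was found in 21, the CCAAT box in 11, the TCF/LEF core in 4 and the TATA box in 4. The shares among all 32851 promoters were 35.7%, 37.4%, 16.0% and 13.6%. The median G and C content was 68.7% for members and 52.7% for all promoters, with a median of 26.5 and 7 CG dinucleotides. A match is a description of letters and does not show binding.

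Of the 15 tested members, 3 were higher and 6 were lower in LRP1 eKO liver cells at a limma adjusted p below 0.05. Differences are LRP1 eKO minus WT on the log2(signal + 1) scale throughout. Among all 11391 genes tested, 41.2% passed this threshold in either direction, 19.0% were higher and 22.2% were lower, so that genotype separated a large share of the transcriptome. The higher members were Wnt2, Wnt9a and Sfrp4, and the lower members were Wnt4, Wnt5a, Fzd1, Fzd2, Sfrp1 and Dkk3. In each of these 9 genes the WT and LRP1 eKO signals did not overlap, as in 42.6% of all genes tested. No member also passed a 2-fold change on the log2(signal + 1) scale, a limit that 1.66% of all genes passed. The median absolute log2 fold change was 0.30 in the tested members and 0.17 in all genes tested. Without WT replicate 4 and LRP1 eKO replicate 2, which stood apart, 3 members were again higher and 6 lower. Each p-value of the exact two-sided permutation test for the 9 genes was 0.0286, the smallest that 4 libraries against 4 can give. Any gene without overlap gets this p-value, so it only restates the lack of overlap.

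**Figure D2:**
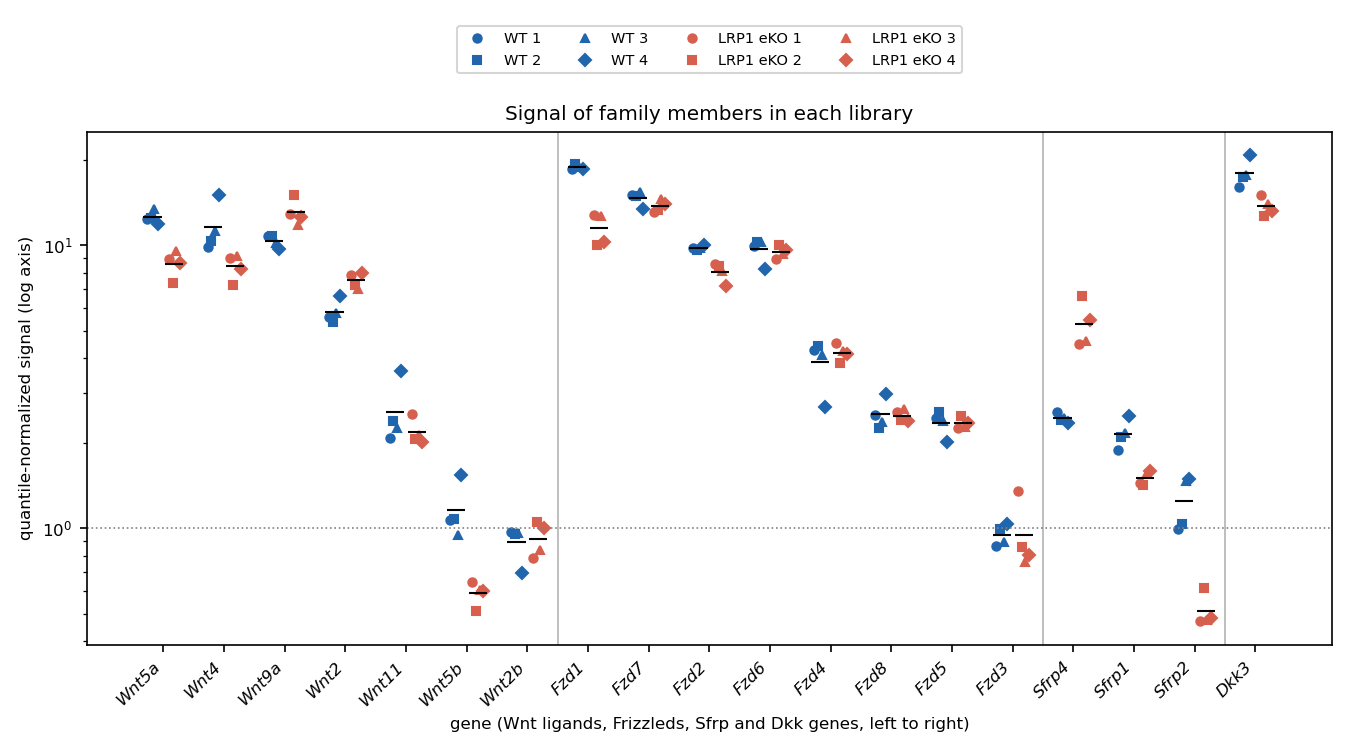
Signal of the 19 members whose signal exceeded 0.2 in any library (horizontal axis), in each library, on a log axis. Symbols are libraries, black bars are group means of 4, and the dotted line marks the signal of 1 used in the filter. Blue and red symbols separate without overlap in Wnt5a, Wnt4, Wnt9a, Wnt2, Wnt5b, Fzd1, Fzd2, Dkk3 and the 3 Sfrp genes shown.

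Wnt ligands: 4 of the 5 tested Wnt genes differed between genotypes, with Wnt5a and Wnt4 lower and Wnt9a and Wnt2 higher. Among all genes tested 41.2% differed, and so small a group was not tested as a set. Wnt5a (ENSMUSG00000021994, chromosome 14, 28504750 to 28527448 on GRCm38), a ligand of Ror receptors that guides cell polarity and migration, measured 12.4, 12.5, 13.4 and 11.9 in the WT replicates numbered 1 to 4 and 8.92, 7.33, 9.54 and 8.68 in LRP1 eKO replicates 1 to 4. All 4 LRP1 eKO libraries lay below the lowest WT library. The mean went from 12.6 ± 0.648 to 8.62 ± 0.928 (mean ± SD, n = 4 per group), a log2 difference of -0.50 ± 0.075 (SE, limma adjusted p = 7.4e-04). An antisense gene, Gm2670, overlaps 358 bases of Wnt5a exons on the opposite strand, and whether counting used the strand is not stated. Wnt11 and Fzd6 have overlaps of 364 and 152 bases with other genes on the opposite strand.

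Wnt4 (ENSMUSG00000036856, chromosome 4, 137277489 to 137299726) is needed for kidney tubule and female reproductive tract formation. Its signals were 9.83, 10.3, 11.2 and 15.1 in WT and 9.01, 7.26, 9.17 and 8.27 in LRP1 eKO libraries, so WT replicate 4 stood above the other WT libraries and the gap between the groups was narrow. The log2 difference was -0.41 ± 0.12 (SE, limma adjusted p = 0.023). The adjusted p was 0.054 without LRP1 eKO replicate 2 and 0.055 without LRP1 eKO replicate 4, and without both WT replicate 4 and LRP1 eKO replicate 2 the change was -0.22 (limma adjusted p = 0.019).

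Wnt9a (ENSMUSG00000000126, chromosome 11, 59306928 to 59333552), a ligand with roles in joint and blood stem cell formation, moved the other way. Its signals were 10.8, 10.8, 10.2 and 9.70 in WT and 12.9, 15.0, 11.8 and 12.6 in LRP1 eKO libraries. Every LRP1 eKO library was above every WT library, with LRP1 eKO replicate 2 the highest. The mean rose from 10.4 ± 0.541 to 13.1 ± 1.39 (mean ± SD, n = 4 per group), a log2 difference of 0.30 ± 0.073 (SE, limma adjusted p = 0.0092).

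Wnt2 (ENSMUSG00000010797, chromosome 6, 17988940 to 18030585), the ligand supplied by central vein ECs and needed in lung and placenta development, had signals of 5.58, 5.37, 5.75 and 6.61 in WT and 7.83, 7.27, 7.0 and 7.98 in LRP1 eKO libraries. The groups were again separate, with a log2 difference of 0.32 ± 0.070 (SE, limma adjusted p = 0.0055). Wnt11, which acts in convergent movements of embryonic tissues, was at 2.08, 2.40, 2.26 and 3.59 in WT and 2.54, 2.07, 2.15 and 2.03 in LRP1 eKO libraries. The groups overlapped, and the log2 difference was -0.15 ± 0.12 (SE, limma adjusted p = 0.34).

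Below the filter, Wnt5b, the closest relative of Wnt5a, had signals of 1.07, 1.08, 0.947 and 1.54 in WT and 0.646, 0.513, 0.608 and 0.600 in LRP1 eKO libraries. The LRP1 eKO mean was 51.1% of the WT mean. In a fit over all 22520 genes, in which 18.7% passed the threshold, its log2 fold change was -0.43 (limma adjusted p = 0.014). Wnt2b, a paralog of Wnt2, was at 0.696 to 0.970 in WT and 0.787 to 1.06 in LRP1 eKO libraries, so that no gap was seen for this relative.

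The other Wnt genes were at traces or listed at 0. Wnt9b, the partner of Wnt2 near the central vein, was between 0.044 and 0.156 over the 8 libraries. Wnt3, Wnt6, Wnt7b, Wnt8a, Wnt10b and Wnt16 stayed below 0.2 in each library, with a highest value of 0.143 (Wnt7b), and Wnt1, Wnt3a and Wnt8b were listed at 0 in all libraries. Wnt7a was listed at 0 in the 4 WT libraries and was between 0.015 and 0.031 in the 4 LRP1 eKO libraries (limma adjusted p = 0.0069 in the unfiltered fit). Wnt10a was at 0.012 to 0.032 in WT and 0.031 to 0.056 in LRP1 eKO libraries, with overlap (limma adjusted p = 0.037 in that fit). The Wnt10a call was lost when any of 6 of the 8 libraries was left out, with adjusted p up to 0.095.

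Several Wnt genes lie in pairs on a chromosome without a coding gene between them, and the pair with the greatest contrast was on chromosome 11. Wnt3a and Wnt9a, 16.2 kb apart there, were listed at 0 and at a WT mean of 10.4. Wnt9b and Wnt3, 24.3 kb apart on the same chromosome, had WT means of 0.12 and 0.0038. Wnt10b and Wnt1 on chromosome 15 (11.7 kb apart) and Wnt6 and Wnt10a on chromosome 1 (6.2 kb apart) were at traces or at 0.

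Summed over the 19 genes, the Wnt signal averaged 45.3 ± 2.77 over the WT and 41.7 ± 0.947 over the LRP1 eKO libraries (mean ± SD, n = 4 per group), while its makeup differed. Wnt5a held 27.8% and Wnt4 25.5% of the WT sum, and 20.6% and 20.2% of the LRP1 eKO sum. Wnt9a went from 23.0% to 31.3% and Wnt2 from 12.8% to 18.0%, so that Wnt9a was the most abundant Wnt transcript per length in each LRP1 eKO library. In WT libraries the order was less firm, since the ranges of Wnt5a (11.9 to 13.4) and Wnt4 (9.83 to 15.1) overlapped and Wnt4 led in WT replicate 4. Wnt11 held 5.65% and 5.25%.

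**Figure D3:**
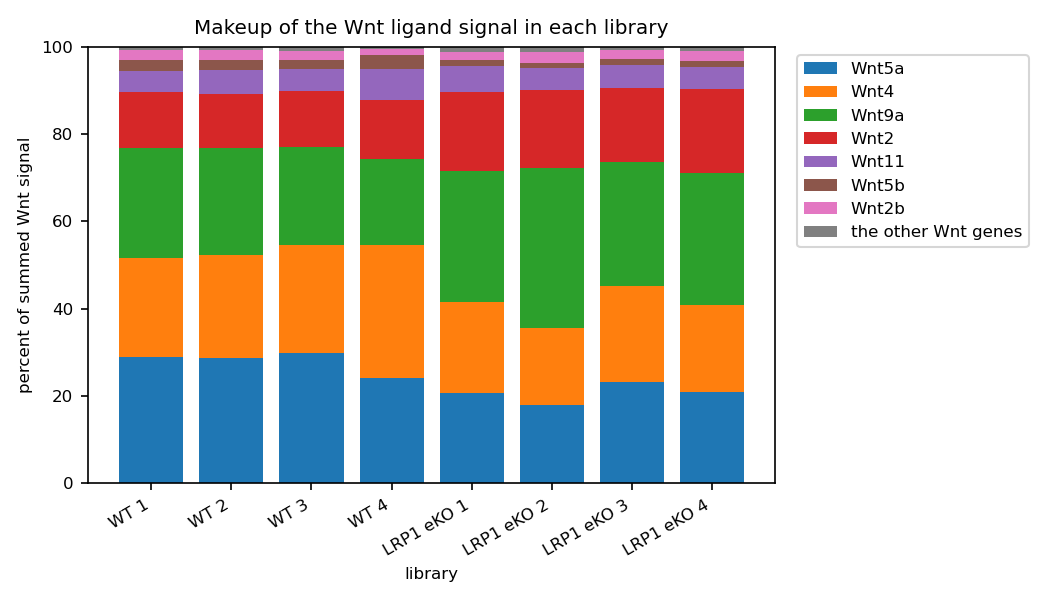
Share of each Wnt gene in the summed Wnt signal (vertical axis, percent), 1 bar per library. From WT to LRP1 eKO libraries the mean share of Wnt9a goes from 23.0% to 31.3% and that of Wnt5a from 27.8% to 20.6%.

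Frizzled receptors: 2 of the 7 tested genes were lower in LRP1 eKO libraries and the other 5 did not pass the test, beside 41.2% called among all genes tested. Fzd1 (ENSMUSG00000044674, chromosome 5, 4753839 to 4758035), the Frizzled with the highest WT signal, was at 18.5, 19.4, 19.0 and 18.6 in WT and 12.8, 10.0, 12.7 and 10.3 in LRP1 eKO libraries. WT libraries were within 1 unit of each other, and the highest LRP1 eKO library lay far below them. The mean fell from 18.9 ± 0.402 to 11.5 ± 1.51 (mean ± SD, n = 4 per group), to 60.9% of WT, with a log2 difference of -0.68 ± 0.080 (SE, limma adjusted p = 1.8e-04).

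Fzd2 (ENSMUSG00000050288, chromosome 11, 102604396 to 102608058), a receptor for Wnt5a, had signals of 9.78, 9.64, 9.78 and 10.0 in WT and 8.58, 8.43, 8.13 and 7.18 in LRP1 eKO libraries. The difference was smaller than that of Fzd1 but the groups were apart, with a log2 difference of -0.25 ± 0.060 (SE, limma adjusted p = 0.0081). Fzd7, which belongs to the same subfamily as Fzd1 and Fzd2, was at 15.1, 15.0, 15.5 and 13.4 in WT and 13.2, 13.3, 14.5 and 14.0 in LRP1 eKO libraries. Only WT replicate 4 overlapped the LRP1 eKO values, and the log2 difference was -0.09 ± 0.057 (SE, limma adjusted p = 0.21). Without WT replicate 4 it was -0.14 (limma adjusted p = 0.039).

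Fzd6, which mostly acts in planar cell polarity, was at 9.97, 10.3, 10.3 and 8.26 in WT and 8.95, 10.0, 9.31 and 9.60 in LRP1 eKO libraries. Fzd4, the receptor for the non-Wnt ligand norrin and a regulator of retinal vessels, was at 4.27, 4.40, 4.10 and 2.69 in WT and 4.50, 3.83, 4.25 and 4.13 in LRP1 eKO libraries. In both receptors WT replicate 4 was the lowest of all libraries and the groups overlapped. Their log2 fold changes were -0.03 ± 0.073 (SE, limma adjusted p = 0.78) and 0.10 ± 0.12 (SE, limma adjusted p = 0.49).

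Fzd8 and Fzd5 form a further subfamily that signals through beta-catenin. Fzd8 was at 2.51, 2.26, 2.38 and 2.97 in WT and 2.57, 2.41, 2.64 and 2.39 in LRP1 eKO libraries (limma adjusted p = 0.93). Fzd5 was at 2.46, 2.57, 2.39 and 2.01 in WT and 2.27, 2.50, 2.28 and 2.36 in LRP1 eKO libraries (limma adjusted p = 0.99). Neither showed a gap between genotypes, and the LRP1 eKO means were 98.7% and 99.6% of the WT means. Fzd3 was at 0.869 to 1.04 in WT and 0.759 to 1.36 in LRP1 eKO libraries, and Fzd9 and Fzd10 peaked at 0.0898 and 0.112.

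The summed Frizzled signal averaged 62.9 ± 2.62 over the WT and 52.9 ± 1.93 over the LRP1 eKO libraries (mean ± SD, n = 4 per group). Fzd1 held 30.02% of it in WT and 21.7% in LRP1 eKO libraries, and Fzd7 held 23.4% and 26.0%. Hence Fzd1 led in every WT library and Fzd7 led in every LRP1 eKO library, though the signal of Fzd7 itself did not pass the test.

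**Figure D4:**
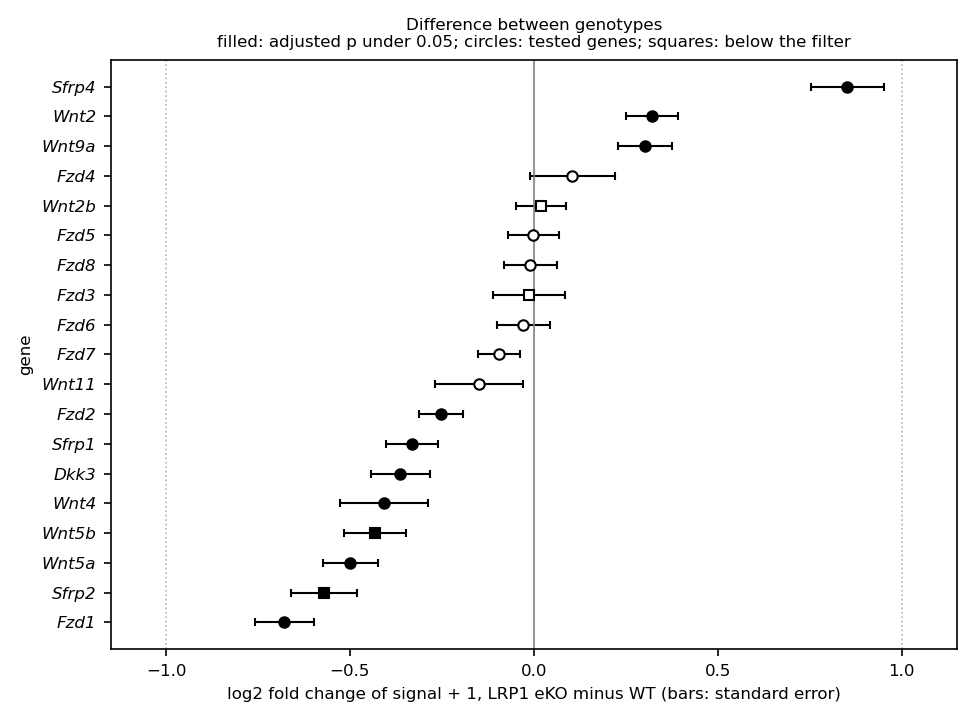
Log2 fold change of signal + 1 (LRP1 eKO minus WT, horizontal axis) of the same 19 members, with its standard error. Filled symbols have an adjusted p below 0.05, circles were tested after the filter and squares in the unfiltered fit. Values run from -0.68 for Fzd1 to 0.85 for Sfrp4, and none reaches the dotted 2-fold lines.

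Secreted antagonists: the 3 Sfrp genes with a signal above 0.2 went in different directions, with Sfrp4 higher and Sfrp1 and Sfrp2 lower. Sfrp4 (ENSMUSG00000021319, chromosome 13, 19623104 to 19632994) was at 2.59, 2.41, 2.46 and 2.36 in WT and 4.48, 6.60, 4.60 and 5.47 in LRP1 eKO libraries. The WT libraries were close to each other, whereas LRP1 eKO replicate 2 was the highest of a wider group. The mean rose from 2.45 ± 0.0977 to 5.29 ± 0.977 (mean ± SD, n = 4 per group), 2.15-fold as a ratio of means. With 1 added before taking log2, which compresses the change of low genes, the difference was 0.85 ± 0.099 (SE, limma adjusted p = 1.6e-04).

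Sfrp1 (ENSMUSG00000031548, chromosome 8, 23411502 to 23449632) is a Wnt inhibitor often silenced in tumours. It was at 1.90, 2.10, 2.17 and 2.49 in WT and 1.45, 1.42, 1.57 and 1.60 in LRP1 eKO libraries. The groups did not overlap, and the log2 difference was -0.33 ± 0.071 (SE, limma adjusted p = 0.0049). Sfrp2, a close paralog of Sfrp1 that mesenchymal cells secrete, was at 0.996, 1.04, 1.48 and 1.50 in WT and 0.470, 0.614, 0.476 and 0.481 in LRP1 eKO libraries. It lay below the filter, its LRP1 eKO mean was 40.7% of the WT mean, and the unfiltered log2 fold change was -0.57 (limma adjusted p = 0.0066). Here too an antisense gene, Gm26771, overlaps 347 bases of exons. The highest signal of Sfrp5 was 0.0392.

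Sfrp4 thus held 41.9% of the summed Sfrp signal in WT and 72.0% in LRP1 eKO libraries. The share of Sfrp1 went from 36.7% to 20.9% and that of Sfrp2 from 21.1% to 6.99%. The sum averaged 5.89 ± 0.424 over the WT and 7.31 ± 1.01 over the LRP1 eKO libraries (mean ± SD, n = 4 per group), below those of the Wnt and Frizzled genes in either genotype.

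Dkk3 (ENSMUSG00000030772, chromosome 7, 112116017 to 112159057) was the only Dkk gene tested and made up over 99% of the Dkk signal in each library. It was at 16.0, 17.4, 17.7 and 20.8 in WT and 15.1, 12.7, 14.0 and 13.2 in LRP1 eKO libraries. Values were lower in all LRP1 eKO libraries, by a log2 difference of -0.36 ± 0.081 (SE, limma adjusted p = 0.0062). The LRP5 and LRP6 antagonists Dkk1 and Dkk2 peaked at 0.0324 and 0.0471, and Dkk4 was listed at 0 throughout.

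Around these members, 85 further genes of the Wnt pathway and of liver zonation were listed, and 57 of them were tested. Of these, 14 were higher and 16 were lower in LRP1 eKO libraries, and only Nkd1 and Cd44 also passed the 2-fold limit. The called share was 52.6%, beside 41.2% of all genes tested. That 41.2% also stands beside the counts of each list below, and no list was tested as a set.

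Production and reception of the ligands differed unevenly. Porcn, the enzyme that adds the lipid to Wnts, went from 3.30 ± 0.289 to 1.97 ± 0.162 (mean ± SD, n = 4 per group; log2 fold change -0.53, limma adjusted p = 3.5e-04). Wls, the carrier that brings Wnts to the cell surface, differed by 0.17 on the log2 scale (limma adjusted p = 0.023), which no longer passed without LRP1 eKO replicate 2 (adjusted p = 0.056) or replicate 4 (adjusted p = 0.053). Of the 11 co-receptors tested, 1 was higher (Tspan12, 0.30) and 1 was lower (Ptk7, -0.31). Tspan12 no longer passed in limma without the filter (adjusted p = 0.082) or on leaving out WT replicate 2, 3 or 4 (adjusted p up to 0.061). Lrp5 (0.01, limma adjusted p = 0.91), Lrp6 (0.14, limma adjusted p = 0.29), Ror1 (0.10, limma adjusted p = 0.33), Ror2 (-0.14, limma adjusted p = 0.069) and Ryk (0.02, limma adjusted p = 0.72) did not pass. The Ror2 groups did not overlap, and Ror2 passed in limma without trend (adjusted p = 0.041) and with array weights (adjusted p = 0.033).

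R-spondins amplify Wnt signals by removing the Frizzled-degrading ligases Znrf3 and Rnf43. Rspo1 went from 43.8 ± 1.96 to 28.7 ± 1.18 and Rspo3 from 3.97 ± 0.271 to 5.86 ± 0.379 (mean ± SD, n = 4 per group), with log2 fold changes of -0.59 (limma adjusted p = 1.8e-05) and 0.47 (limma adjusted p = 4.5e-04). Their receptor Lgr4 was higher (0.28, limma adjusted p = 0.011), Znrf3 did not pass (0.07, limma adjusted p = 0.54), and Lgr5 (0.0032 to 0.027) and Rnf43 (0.031 to 0.255) had signals below the filter. Of 4 other antagonists tested, Apcdd1 (-0.73) and Tpbg (-0.20) were lower and Kremen1 (0.16) was higher, while Frzb did not pass (0.16, limma adjusted p = 0.44). Without LRP1 eKO replicate 2, Frzb was at 0.33 (limma adjusted p = 0.025). The Kremen1 call was lost on leaving out WT replicate 1 or any of LRP1 eKO replicates 1, 2 and 4, and that of Tpbg on leaving out any library but LRP1 eKO replicate 2, with limma adjusted p up to 0.070 and 0.096. Wif1 (0 to 0.027) and Notum (0.054 to 0.236) had signals below the filter.

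Among 23 tested cytoplasmic transducers, 4 were higher and 5 were lower, shares close to the 19.0% and 22.2% of all genes tested. Gsk3b and Apc, parts of the complex that degrades beta-catenin, were higher (0.51 and 0.47), as were Dvl3 (0.42) and Daam1 (0.42). Prickle1 (-0.61) and Daam2 (-0.55), which act in planar polarity and actin control, were lower, as were Ctnnbip1 (-0.22), Dvl2 (-0.18) and Tcf7 (-0.27). Without the filter, Dvl3 (adjusted p = 0.080), Ctnnbip1 (adjusted p = 0.091), Dvl2 (adjusted p = 0.084) and Tcf7 (adjusted p = 0.067) no longer passed in limma. The Ctnnbip1 call was also lost on leaving out any of WT replicates 1, 2 and 4 or LRP1 eKO replicates 1 and 2, and that of Dvl2 on leaving out any library but LRP1 eKO replicate 2, with adjusted p up to 0.085 and 0.117. Ctnnb1, which encodes beta-catenin, did not pass (0.11, limma adjusted p = 0.12).

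Genes widely used as readouts of beta-catenin signalling were split. Nkd1 went from 9.83 ± 0.810 to 3.46 ± 0.249 (mean ± SD, n = 4 per group), which is -1.28 on the log2 scale (limma adjusted p = 1.3e-06). Axin2, the usual feedback target, went from 1.49 ± 0.114 to 0.717 ± 0.264 (mean ± SD, n = 4 per group; log2 fold change -0.55, limma adjusted p = 0.0027). Axin2 met the filter through the WT libraries, since only replicate 1 of LRP1 eKO (1.08) reached 1. Lef1, below the filter, went from 0.511 ± 0.0676 to 0.210 ± 0.0506 (mean ± SD, n = 4 per group), 41.2% of the WT mean, which is -0.32 on the log2(signal + 1) scale (limma adjusted p = 0.0034 in the unfiltered fit). Tnfrsf19, also below the filter, went from a mean of 0.399 to 0.154 (-0.28, limma adjusted p = 5.8e-04 in that fit). Rnf43 went the other way without overlap, from 0.098 to 0.191, but did not pass (0.12, limma adjusted p = 0.088 in that fit).

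Ccnd1 (0.81), Myc (0.61) and Cd44 (1.28), targets that many other signals also control, were higher. In all, 3 of 8 tested feedback targets were higher and 4 were lower, beside 19.0% and 22.2% of all genes tested. Tcf7, which is also on this list, lost its call on leaving out any of 5 libraries (WT replicates 2 and 4, LRP1 eKO replicates 1, 3 and 4), with adjusted p up to 0.074.

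**Figure D5:**
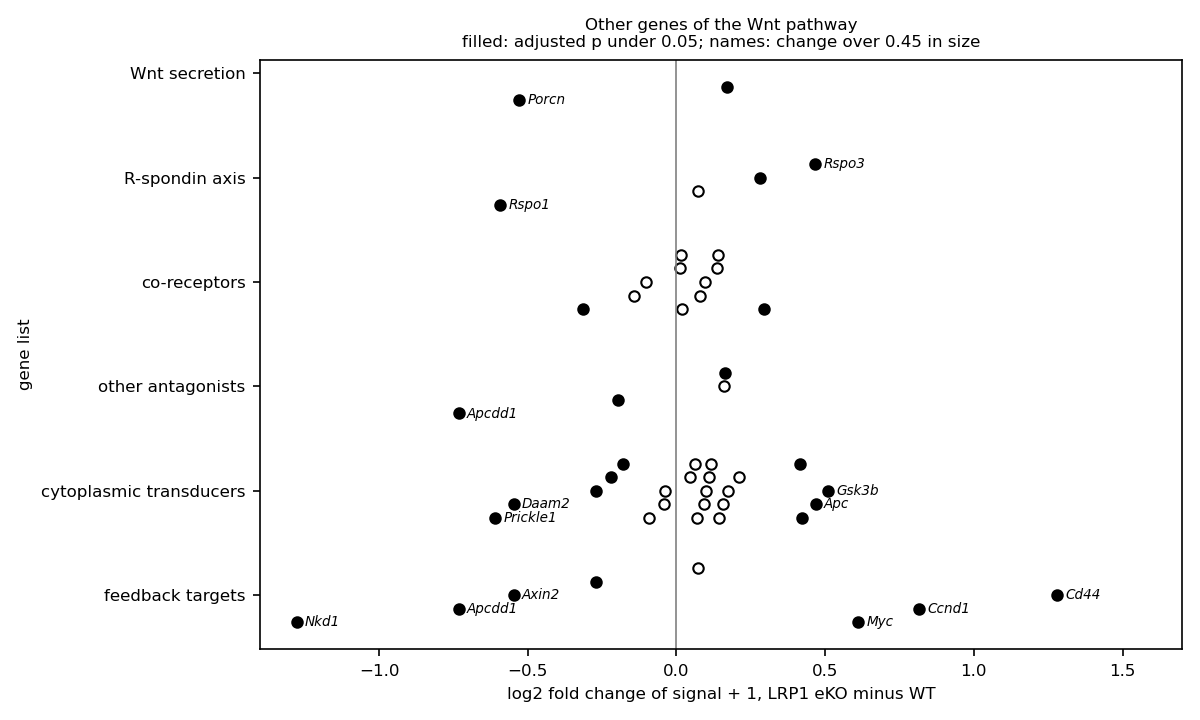
Log2 fold change of signal + 1 (LRP1 eKO minus WT, horizontal axis) of the tested genes of 6 Wnt pathway lists, without the 37 members and without the zonation lists. Filled points have an adjusted p below 0.05, and points beyond 0.45 in size are named. Among the genes drawn, Nkd1 at -1.28 and Cd44 at 1.28 lie farthest from 0, within the same list.

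Of 10 genes that Wnt signals maintain in hepatocytes around the central vein, 3 were tested and all 3 were lower, namely Glul (-0.30), Oat (-0.33) and Axin2. Axin2 met the filter through the WT libraries (1.34 to 1.60), since only replicate 1 of LRP1 eKO (1.08) reached 1. Its place among the tested genes thus depends on the group where it is high. The other 7 stayed below 1 in every library, with Cyp2e1 at most 0.129. Oat and Glul had WT means of 131 and 61.7, against 20.8 for the hepatocyte gene Alb. The hepatocyte markers were lower in the same libraries. Which cells gave the Oat and Glul signals, and whether these moved with the hepatocyte markers, was not tested. Of 6 genes typical of central vein ECs, 4 were tested, with 3 higher (Wnt2, Rspo3 and Thbd, 0.50) and 1 lower (Cdh13, -0.45). The other 2, Wnt9b included, stayed below 1 in every library. Thbd was at 60.8 to 116, above Cdh5 and Pecam1 in every library, and the cells that gave these signals were not identified. Of 5 genes typical of portal ECs, 4 were tested, with Ntn4 (0.23) higher and Ltbp4 (-0.75) lower. Without the filter, Glul (adjusted p = 0.056), Cdh13 (adjusted p = 0.077) and Ntn4 (adjusted p = 0.084) no longer passed in limma. The Cdh13 call was also lost without LRP1 eKO replicate 4 (adjusted p = 0.054), and that of Ntn4 on leaving out any of 6 libraries (WT replicates 1, 2 and 4, LRP1 eKO replicates 1, 3 and 4), with adjusted p up to 0.105. The EC markers themselves included 2 higher genes (Cdh5 and Esam) and 0 lower genes among 7 tested. The Cdh5 groups overlapped, since LRP1 eKO replicate 2 (2.21) lay below WT replicate 2 (2.27), and its limma adjusted p was 0.020 with and 0.093 without the filter.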

How the data were processed

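RNA of 4 WT and 4 LRP1 eKO samples was sequenced by the authors after TruSeq library preparation. The deposited table gives a quantile-normalized signal per gene and library, and its unit before normalization and that step are not described. The submitters' processing notes name TopHat2, Cufflinks and mm10, whereas the methods of the paper name STAR, featureCounts and edgeR, so the origin of the signal is uncertain. Quantile normalization removes any global shift between genotypes, and without counts no counting interval was computed.

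Samples were grouped by their genotype label. Values were converted to log2(signal + 1) and genotypes were compared by limma (version 3.58.1, R 4.3.3) without covariates, with a mean-variance trend, a filter that required a signal of 1 in 4 or more of 8 libraries, and Benjamini-Hochberg adjustment over all 11391 genes. Members below the filter were taken from the same fit over all 22520 genes. An exact two-sided permutation test (70 arrangements) was run per member. The scripts were tested on simulated data. Positions came from GENCODE M21, which held 21740 of the 22520 gene identifiers, and promoters from RefSeq (GRCm38.p6). Figures were drawn with matplotlib 3.10.9.

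Every member is named. Tested members, and members below the filter that passed in the unfiltered fit, are given in every library, save that the traces of Wnt7a and Wnt10a are given as ranges. Pathway genes are named if they passed both thresholds or belong to a fixed core set. Apcdd1, Tpbg, Kremen1, Tspan12, Ptk7, Rspo1, Tnfrsf19, the named transducers, the zonation genes and the cell markers were chosen after their values were seen. Members and lists were chosen with earlier results of these data known. Alternatives were other pseudocounts and filters, limma's robust moderation, no trend, weighted arrays, trimmed-mean centring, a ratio of means, the replicate number as a block, and leaving out each library.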

Additional observations from a re-analysis of the deposited data

Results flagged for a closer look

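Groups of 4 libraries were examined by Dixon's test of gaps for the 19 members with a signal above 0.2, Wnt7a, Wnt10a and the named pathway and zonation genes with a signal of 0.2 or more. Tnfrsf19 was not examined. In 10 of 124 groups, 1 library lay apart, and about 6.2 such groups arise by chance. The gap of that library, as a share of the range of its group, was 0.839 for Fzd6, 0.954 for Wnt2b, 0.888 for Ctnnb1, 0.851 for Wls, 0.903 for Ccnd1 and 0.860 for Thbd, each with WT replicate 4 lowest, and 0.906 for Prickle1, with WT replicate 4 highest. WT replicate 4 had signals of 8.26 for Fzd6, 0.696 for Wnt2b, 144 for Ctnnb1, 86.7 for Wls, 14.1 for Ccnd1 and 60.8 for Thbd, against 9.97 to 10.3, 0.957 to 0.970, 166 to 169, 96.3 to 98.0, 17.5 to 17.8 and 79.3 to 82.4 in the other WT libraries. For Prickle1 it had 11.6, against 10.8 in each of the others. The share was 0.921 for Sfrp2 and 0.887 for Tspan12, with LRP1 eKO replicate 2 highest (0.614 and 3.23, against 0.470 to 0.481 and 2.35 to 2.45), and 0.832 for Fzd3, with LRP1 eKO replicate 1 highest (1.36, against 0.759 to 0.860). All Sfrp2 signals in LRP1 eKO libraries lay below those of WT libraries.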

How the results depend on the processing

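Of 386 values of members under the alternatives, 346 kept their direction and their side of the threshold, 11 lost the call, 2 gained it, 22 changed sign and 5 moved otherwise. For the pathway genes named with a signal of 0.2 or more, save Tnfrsf19, these numbers were 693, 54, 4, 11 and 11 of 773. The count of tested members past 2-fold was 1 (Sfrp4) with a pseudocount of 0.1. Sfrp2, below the filter and so outside that count, was at -1.13 with this pseudocount (limma adjusted p = 0.0057 in the unfiltered fit). The count of higher members was 5 with no filter, which added the traces of Wnt7a and Wnt10a, while Wnt4 had an adjusted p of 0.091 there. When each library was left out in turn, 3 members were higher, 5 to 7 were lower, 0 passed 2-fold, and 3 to 5 passed below the filter. With the replicate block, 3 members were higher and 6 were lower, and the count of members passing below the filter was 2, since Sfrp2 and Wnt5b had adjusted p of 0.051 and 0.058. The labels do not say whether the replicate numbers pair the samples. Same-number correlations of deviations from the group means ran from -0.13 to 0.178, and 0 WT libraries correlated best with their own number. With 4 libraries per genotype, these correlations cannot decide whether samples were paired. Only members and pathway genes that did not pass the test changed sign. With array weights the values were -0.043 for Wnt2b, -0.00024 for Fzd4, 0.067 for Fzd8, -0.024 for Lrp5 and -0.030 for Znrf3, and Fzd7 passed (adjusted p = 0.046). Without both WT replicate 4 and LRP1 eKO replicate 2, an alternative chosen after seeing the data, they were 0.027 for Fzd3, -0.068 for Wnt2b, 0.061 for Fzd8, -0.018 for Lrp5, -0.048 for Znrf3 and -0.0081 for Ryk. With 1 library left out, the range crossed 0 for Fzd3 (-0.11 to 0.032), Wnt2b (-0.034 to 0.053), Fzd4 (-0.023 to 0.16), Fzd5 (-0.053 to 0.029), Fzd8 (-0.047 to 0.048), Lrp5 (-0.041 to 0.044), Znrf3 (-0.0011 to 0.104), Ryk (-0.0049 to 0.038) and Notum (-0.0055 to 0.071). The causes were not tested. The depth of the libraries is unknown, so that genes listed at 0 or at traces cannot be called absent.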
